A study of Mus musculus with 18 samples.

Results

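Forelimb binding sites of Tbx5 were chosen by their peak score: the 2055 sites with the highest scores (the top quintile, 20% of the list) were set against the 2055 with the lowest (the bottom quintile), out of 10273 in all. The sites came from 1 chromatin immunoprecipitation sequencing library, made from forelimb buds of wild type CD1 embryos at e10.5 with a homemade antibody to Tbx5. CD1 is an outbred mouse stock. The series holds 18 samples of forelimb and hindlimb buds, and the other 17 were not used here. A site is given as its summit, the base at which the peak is highest, on genome build mm10, with the peak caller's score read as −log10 of the q-value. Nothing in the files states this, and the score would be −log10 of the p-value had the caller been run with a p-value threshold. A higher score means a peak that stands out more from the background that the caller used, and it depends on read depth as well as on binding. With 1 library there is no replicate error, so no test was run. The 95% intervals below cover only the counting of summits within this list, or of genes within the gene lists.

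Tbx5 is a T-box transcription factor that is made in the forelimb bud and not in the hindlimb bud, and the forelimb does not form without it. T-box proteins bind DNA through a conserved domain that recognises a short element with the core AGGTGT, read as ACACCT on the opposite strand. In limb mesenchyme, the tissue that becomes cartilage, tendon and connective tissue, Tbx5 acts upstream of Fgf10, the growth factor that starts outgrowth of the bud. Binding sites of such factors often lie far from the genes they control, and several sites may surround 1 gene.

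Promoters are the part of the sites for which sequence was at hand, from a RefSeq table of 32851 promoter windows on GRCm38.p6, the assembly that mm10 represents. Each window runs from 250 bases before a transcription start to 50 after it. The stretches below show where the T-box core lies in promoters with a high-scoring and with a low-scoring summit. They hold up to 60 bases on each side of the summit, written 5′ to 3′ on the strand of the gene with the core in capitals. The Mink1 stretch is cut at the transcription start. The Dnajb5 stretch is cut at the far edge of its window, 250 bases before the start. The first 4 carry the highest-scoring top-quintile summits with a core in this stretch, and the last 3 such summits of the bottom quintile. Those 3 share their score with others and were taken in genome order among summits that lie before the start.
Pcnp promoter: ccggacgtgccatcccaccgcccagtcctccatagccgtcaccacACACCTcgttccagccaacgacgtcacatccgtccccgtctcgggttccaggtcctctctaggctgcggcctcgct
Azi2 promoter: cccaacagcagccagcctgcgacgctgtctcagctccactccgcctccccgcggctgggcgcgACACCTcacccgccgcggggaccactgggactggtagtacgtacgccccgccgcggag
Dnajb5 promoter: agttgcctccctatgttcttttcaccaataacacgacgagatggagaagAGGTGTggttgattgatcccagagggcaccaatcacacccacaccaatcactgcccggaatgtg
Rab43 promoter: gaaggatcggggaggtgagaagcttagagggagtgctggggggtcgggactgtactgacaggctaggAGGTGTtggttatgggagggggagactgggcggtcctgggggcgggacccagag
Uck2 promoter: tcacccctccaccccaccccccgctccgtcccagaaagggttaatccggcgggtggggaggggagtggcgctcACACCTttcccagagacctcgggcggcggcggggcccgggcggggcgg
Mink1 promoter: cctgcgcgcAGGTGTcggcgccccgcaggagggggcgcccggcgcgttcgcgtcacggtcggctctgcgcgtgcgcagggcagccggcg
Timm22 promoter: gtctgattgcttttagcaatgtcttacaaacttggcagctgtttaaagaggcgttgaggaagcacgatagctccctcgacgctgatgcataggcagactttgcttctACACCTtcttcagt

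The Pcnp stretch is chr16:56029748-56029868 on the minus strand, with a summit score of 366 and the core 13 bp from the summit, measured to the third base of the core. Azi2 (chr9:118040287-118040407, plus strand) scored 107, with the core 5 bp away. Dnajb5 (chr4:42949617-42949729, plus) scored 56.3 with the core 1 bp away, and Rab43 (chr6:87811894-87812014, minus) scored 49.9 with the core 9 bp away. In all 4 the summit lay between 91 and 198 bp before the transcription start. The bottom-quintile stretches were Uck2 (chr1:167285174-167285294, minus), Mink1 (chr11:70562792-70562880, plus) and Timm22 (chr11:76406981-76407101, plus). Each had a score of 4.13, and the core lay 15, 49 and 49 bp from the summit, so that in Mink1 and Timm22 it was toward the edge of the stretch.

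Across the list, the scores ran from 1.42 to 1477. They chose the members, and so are given as a description only. The top quintile had a median of 44.7 with quartiles of 30.9 and 80.3, and the bottom quintile a median of 3.60 with quartiles of 3.10 and 4.13. The 10273 scores took 353 distinct values, and 603 summits shared the commonest one, 4.67. The lower limit of the top quintile, 23.7, was shared by 70 summits, of which 24 fell inside it by genome position. The upper limit of the bottom quintile was the value of 4.67, and 93 of its 603 summits fell inside, all on chromosomes 15 to Y. Just inside and outside the top quintile, chromosome 5 positions 44922575 and 46598195 had the same score, as did chromosome 15 positions 91681472 and 82247068 at the limit of the bottom quintile. Leaving out all tied summits moved the differences in place and clustering by less than 0.5 percentage points.

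**Figure D1:**
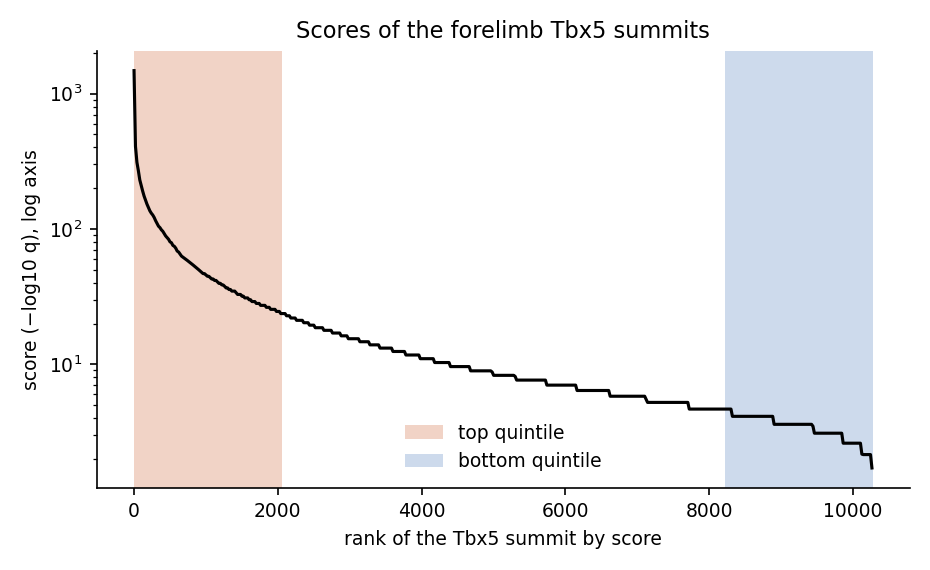
Score of each forelimb Tbx5 summit (vertical axis, read as −log10 q, log scale) against its rank in the list (horizontal axis), with every twentieth rank drawn. The shaded bands mark the top and the bottom quintile, and the curve falls in visible steps toward its low end, where many summits share a score.

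High-scoring Tbx5 sites lay farther from gene ends than low-scoring ones. Of the top quintile, 121 summits (5.89%, 95% interval 4.91 to 6.99) were at most 1 kb from the start or end of a protein-coding gene, against 191 (9.29%, 8.07 to 10.6) of the bottom quintile. The difference was −3.41 percentage points, with an interval of −5.04 to −1.79. The 3 quintiles between them held 6.96%, 6.82% and 8.13% from higher to lower scores. The median distance to the nearest gene end was 57.1 kb (quartiles 16.7 and 159 kb) in the top quintile and 40.0 kb (9.30 and 130 kb) in the bottom quintile. The stretch from 1 to 10 kb showed the same lean, with 11.9% of top and 16.3% of bottom summits. From 10 to 50 kb the shares were 29.1% and 29.0%, and from 100 to 250 kb they were 20.5% and 17.0%.

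At gene ends, most of the sites were at the start of the gene rather than the far end. Strand was known for 91 of the 121 top-quintile and 158 of the 191 bottom-quintile summits. Of these, 75 and 132 were nearest to a gene start and 16 and 26 to a far end. Within 1 kb of any annotated transcription start, coding or not, lay 6.56% (5.51 to 7.75) of top and 9.42% (8.16 to 10.8) of bottom summits. The start-site table had no entry on 1 chromosome, chromosome 18, which left 1965 top and 1953 bottom summits for these shares.

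The share with a T-box core did not go up with the score inside promoters. Of these summits, 56 of the top quintile (2.85%, 2.16 to 3.68) and 87 of the bottom quintile (4.45%, 3.58 to 5.47) lay in a promoter window. The core AGGTGT, on either strand, was in the promoters of 9 of the 56 (16.1%, 7.62 to 28.3) and 22 of the 87 (25.3%, 16.6 to 35.7). The interval of this difference, −21.7 to 4.96 percentage points, spans 0. All 32851 windows held the core in 13.7%, and the promoters of the 3 middle quintiles in 16.7%, 33.8% and 21.5% from higher to lower scores. A core lay within 50 bp of the summit, by the same distance, in 12.5% of the top and 16.1% of the bottom quintile's promoters. Counting only cores that lay wholly within 50 bp gave 12.5% and 13.8%. The longer form AGGTGTGA, which contains the core, was in 7 of all 339 promoters with a summit (2.06%) and in 1.28% of all windows. Promoters of the top and bottom quintiles were alike in base composition, with a median of 63.2% and 62.3% G and C, against 52.7% for all windows.

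The 5 highest-scoring promoter summits lay at Abraxas2, Pcnp, Akap13, Gm31344 and Ephb4, and of these Pcnp alone had the core. At Abraxas2, which encodes a subunit of a deubiquitinating complex, the summit (chromosome 7 position 132859111) scored 469 and was 114 bp from the start. Pcnp had 366, Akap13, which encodes an anchoring protein of protein kinase A, 315, and Gm31344 298. Ephb4, an ephrin receptor of veins, had 260 at chromosome 5 position 137350015. Among the genes of the lists described further on, 5 had a promoter summit in either quintile, counting only windows of the promoter table, which covers 79.9% of coding genes. Fzd2, with a top-quintile summit of 29.1 at 0.033 kb outside the gene, is not among the 5. Tbx18 had a top-quintile summit of 34.7 on chromosome 9 (position 87731257), 3 bp from the annotated start, and Id3 and Tcf7l2 had 27.2 and 24.6. Smad6 and Sox6 had bottom-quintile summits of 4.13 and 2.61.

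Being inside a gene set the quintiles apart less clearly. Of the top quintile 44.9% (42.7 to 47.1) and of the bottom quintile 47.9% (45.8 to 50.1) lay inside a protein-coding gene, a difference of −3.02 points with an interval of −6.06 to 0.0321. Without the 1 kb next to gene ends the shares were 42.0% and 42.6%. High-scoring summits inside genes lay in longer genes, with a gene counted once for each summit that it held. The median length was 227 kb around the 923 top-quintile summits inside genes and 149 kb around the 985 of the bottom quintile. It was 185, 199 and 170 kb in the quintiles between. Genes that were the nearest to a summit within 100 kb were also counted once each. Their median length was then 88.2 kb for the top and 74.1 kb for the bottom quintile. Inside genes and over 100 kb from any gene end lay 11.6% of top and 8.91% of bottom summits, a difference of 2.68 points (0.823 to 4.54).

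Gene deserts, meaning sequence more than 100 kb away from every coding gene, held slightly more of the high-scoring sites. The shares were 24.0% (22.2 to 25.9) of the top and 21.4% (19.7 to 23.2) of the bottom quintile, a difference of 2.58 points with an interval of 0.0174 to 5.14. The 3 quintiles between held 24.8%, 23.2% and 21.2% from higher to lower scores, so the share did not move step by step. Without the tied summits the difference between top and bottom was 2.47 (−0.140 to 5.06). It was 0.974 (−2.71 to 4.65) for the top and bottom deciles and 2.72 (0.730 to 4.70) for terciles. With a limit of 200 kb it was 0.730 (−1.39 to 2.85), and with 50 kb 4.14 (1.31 to 6.95). When noncoding genes and pseudogenes were also counted as genes, the shares fell to 3.60% and 4.09%, and the difference turned to −0.487. In deserts the median distance to the nearest coding gene was 239 kb for top and 253 kb for bottom summits. Seen from the other side, the median score of all summits was 7.02 near gene ends, 8.29 deeper inside genes and 8.95 in deserts.

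The highest desert summit scored 599 at chromosome 16 position 62469026, 263 kb from the nearest coding gene, Nsun3, and 473 kb from the next Tbx5 summit. Another, with 417, lay at chromosome 19 position 56099904, 166 kb from Tcf7l2, a nuclear effector of Wnt signalling, and inside the long noncoding RNA gene Gm52387. A summit with 406 at chromosome 3 position 99666221 had Spag17 as its nearest coding gene at 219 kb, and a further summit 2.11 kb away. A summit with 397 at chromosome 13 position 115801837 lay 496 kb from Isl1, a LIM homeodomain gene of the hindlimb field. The desert summit on chromosome 18 at position 15253905 scored 411 and was 102 kb from Kctd1.

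**Figure D2:**
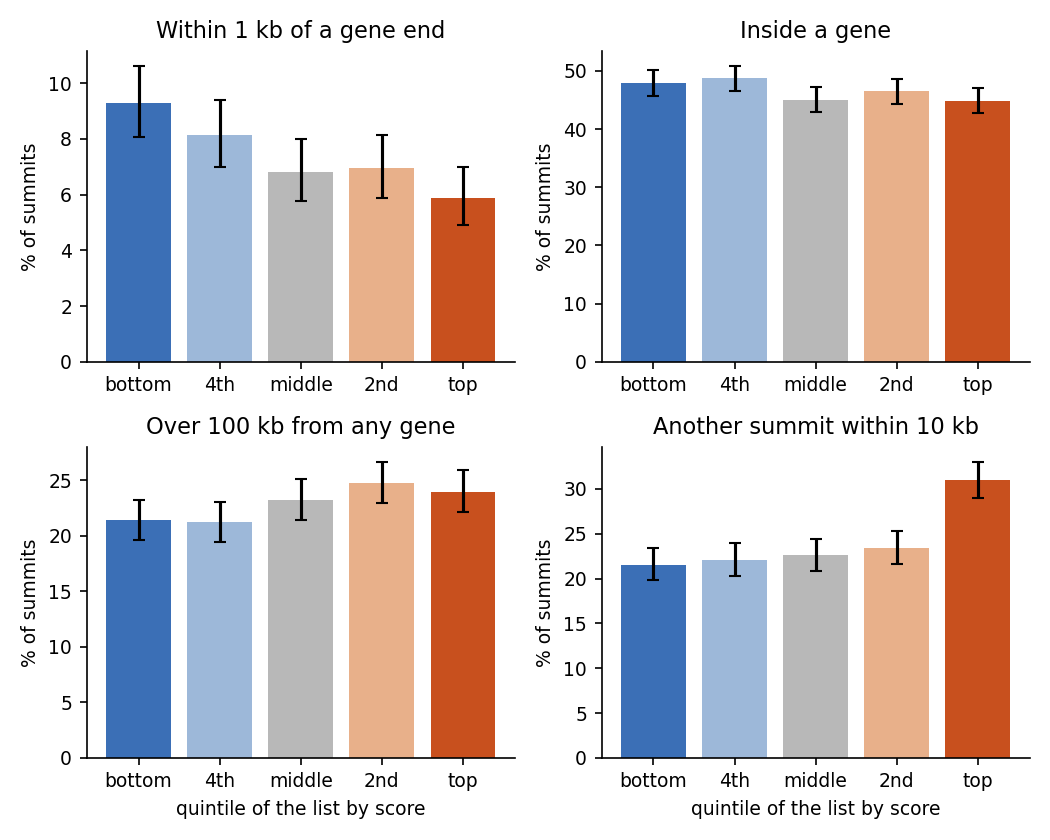
Share of Tbx5 summits (vertical axes, %) in each quintile of the list by score, from the bottom to the top quintile, for 4 measures of place. Bars are shares and whiskers exact 95% intervals over summits, so the drop near gene ends from 9.29% to 5.89% and the higher share of top-quintile summits with a neighbour, 31.0%, can be read against them.

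High-scoring sites had close neighbours more often than low-scoring ones. Another Tbx5 summit of any score lay within 10 kb of 637 top-quintile summits (31.0%, 29.0 to 33.0) and of 443 bottom-quintile summits (21.6%, 19.8 to 23.4). The difference was 9.44 points (6.76 to 12.1). The 3 middle quintiles, at 23.5%, 22.6% and 22.1%, were close to the bottom quintile, so the step lay between the top quintile and the rest. The median distance to the nearest other summit was 26.7 kb in the top and 49.8 kb in the bottom quintile. Within 1 kb the shares were 6.33% and 5.50%, with a difference of 0.827 points (−0.620 to 2.28), and within 20 kb 44.2% and 32.1%. Within 0.501 kb the order was the other way, with 0.876% of top and 2.24% of bottom summits.

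High-scoring sites also lay near each other. Counting only neighbours of the same quintile, which are equally numerous in both, 10.1% of top and 5.99% of bottom summits had one within 10 kb, a difference of 4.09 points (2.43 to 5.76). The median distance to the nearest summit of the same quintile was 175 kb for the top and 289 kb for the bottom. Of the 637 top-quintile summits with a neighbour, the nearest was also in the top quintile for 174 (27.3%, 23.9 to 31.0) and in the bottom quintile for 108 (17.0%, 14.1 to 20.1). In the middle quintiles the nearest was in the top quintile almost as often, for 26.6%, 26.9% and 25.2% from higher to lower scores. A top-quintile summit as nearest neighbour was thus not particular to high-scoring sites. For the 443 of the bottom quintile the nearest was in the top quintile for 103 (23.3%) and in the bottom quintile for 108 (24.4%). Low-scoring sites with a neighbour had a low-scoring one about as often as a high-scoring one.

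The difference in clustering had a similar size in each kind of place. Inside genes 31.0% of top and 21.9% of bottom summits had a neighbour within 10 kb. Outside genes but within 100 kb of one the shares were 31.5% and 21.1%, and in deserts 30.4% and 21.4%. The deposited list leaves out some of the numbered peaks, and both neighbouring peak numbers were present for 65.5% of top and 59.0% of bottom summits. Among summits with both present, 38.2% of top and 27.9% of bottom had a neighbour within 10 kb, a difference of 10.3 points (6.69 to 13.9).

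**Figure D3:**
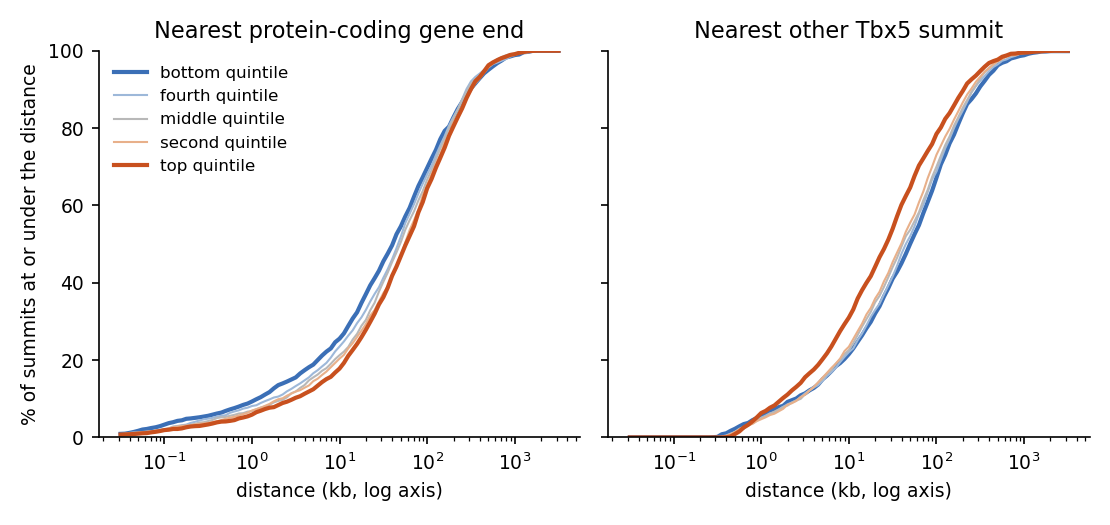
Cumulative share of summits (vertical axis, %) by distance in kb on a log scale to the nearest end of a protein-coding gene (left) and to the nearest other Tbx5 summit (right), with 1 line for each quintile. Over most distances the top quintile runs to the right of the bottom quintile for gene ends (medians 57.1 and 40.0 kb). For other summits it mostly runs to the left (medians 26.7 and 49.8 kb). The lines cross at far gene ends (96.3% of top and 95.1% of bottom summits within 501 kb) and at the closest summits (0.876% and 2.24% within 0.501 kb).

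When summits at most 10 kb apart were chained, 7794 stood alone, 1728 formed 864 pairs and 751 formed 222 chains of 3 or more. The top quintile made up 18.2% of single summits, 25.1% of those in pairs and 27.2% of those in longer chains, while the bottom quintile made up 20.7%, 19.2% and 14.9%. Chains with at least 2 top-quintile summits numbered 105, and those with at least 2 of the bottom quintile 61.

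The chain with the best score among the 5 richest in top-quintile summits lay beside Mrpl23, a gene for a mitochondrial ribosomal protein next to the imprinted H19 and Igf2 genes. It ran from chromosome 7 position 142539985 to 142559914, and its 6 summits scored 6.40, 2.61, 93.6, 25.5, 187 and 542 from left to right. Tenm4, a teneurin adhesion gene, held 4 top-quintile summits over 15.6 kb from chromosome 7 position 96652228, with scores of 28.2, 41.6, 474 and 29.1. At Lrmda, 3 summits scored 135, 254 and 61.9 over 8.25 kb from chromosome 14 position 22589598. Dgki, a diacylglycerol kinase gene, held 3 with 58.5, 125 and 203 over 7.38 kb from chromosome 6 position 36890484. The last of the 5 chains, with scores of 128, 41.6 and 131, was 42.9 kb outside Rpusd4 on chromosome 9.

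High-scoring sites were spread over fewer genes. Each summit was given to the nearest protein-coding gene within 100 kb, a summit inside a gene counting as distance 0, and one inside several genes going to the gene with the closest end. The 1562 top-quintile summits with such a gene fell to 1152 genes and the 1615 of the bottom quintile to 1339, which is 73.8 and 82.9 genes per 100 summits. These were 5.26% and 6.12% of 21887 protein-coding genes, while a summit of any score was given to 18.7%. Both quintiles were present at 347 genes, 30.1% of the genes with a top-quintile and 25.9% of those with a bottom-quintile summit. At least 3 summits of the quintile were held by 76 genes for the top and 44 for the bottom quintile.

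The genes with the highest-scoring summits were chosen by that score, so each had 1 far above the median of the top quintile by the choice itself. Gpr84, a receptor gene of immune cells, had 1477 at chromosome 15 position 103305430, 2.80 kb outside the gene. Hsd11b2, whose enzyme product inactivates glucocorticoids, had 1252 at chromosome 8 position 105519818 inside the gene, with no other summit within 46.2 kb. Col1a2, a type I collagen gene, had 886 at a distance of 15.8 kb. Zfp608 had 800, with another summit at 1.56 kb. Further genes were Crocc2 (665), Mrpl23 (542), Pknox2 (516), Nln (486) and Iqca (481). Among the genes named here, the nearest other summit was between 0.866 kb away for Nln and 95.4 kb for Iqca, so the highest scores occurred both in and out of clusters.

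By number, Lrmda held the most top-quintile summits, 18 of its 53, with scores from 27.2 to 341, and 5 of the bottom quintile. It spans 1037 kb of chromosome 14 (22019504 to 23056093). Tenm4 held 9 of 21 in the top quintile and none in the bottom. Mecom, a zinc finger transcription factor gene, held 9 of 22 and 4 in the bottom quintile, with 3 of its summits above a score of 250. Dennd1a followed with 6 of 13, and Mrpl23, Gm50595, Gpc5, Lix1, Adgrl3 and Gse1 with 5 each. Lix1, a gene named for its limb expression, is 56.7 kb long and had 7 summits, none in the bottom quintile, with 5 top-quintile scores of 180, 83.9, 64.1, 59.6 and 30.9. Elac2, Erc2, Tmem132c and Lrba also had 5 top-quintile and no bottom-quintile summits.

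The bottom quintile piled up less. Lrmda, Rbms3 and Cradd held 5 each, and Mecom, Gpc5, Sox6, Epha3, Nrxn3, Auts2 and Kif26b 4 each. Cradd, an adaptor gene of cell death signalling, had 5 summits and all were in the bottom quintile, with scores from 3.10 to 4.13. Rbms3, an RNA-binding protein gene, had 1 top-quintile summit, with 89.9, among its 10. Akap6 and the X-linked Btbd35f8 had 4 bottom-quintile and no top-quintile summits. Btbd35f8 belongs to a family of similar genes, and its 4 summits, between positions 34482686 and 34485362, lie outside it. Whether reads there could be placed uniquely was not tested.

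**Figure D4:**
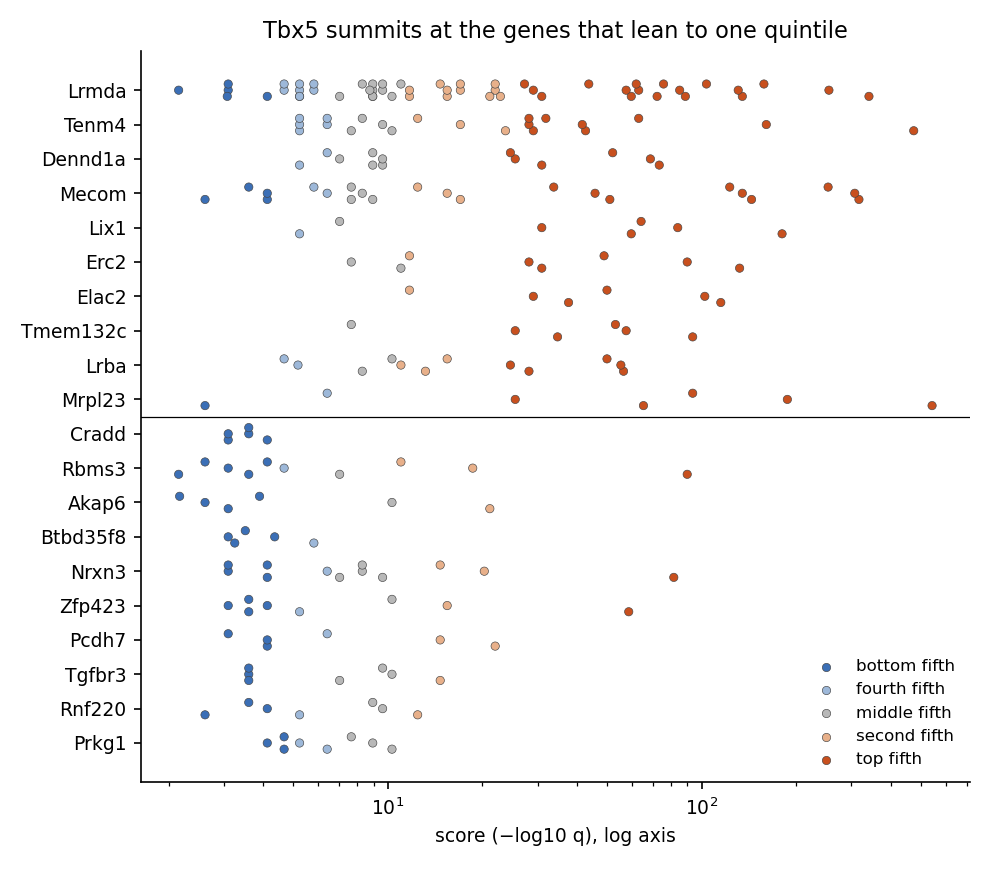
Score of every Tbx5 summit (horizontal axis, read as −log10 q, log scale) given to the 10 genes with the largest excess of top-quintile over bottom-quintile summits (above the line) and the 10 with the largest excess the other way (below it). Each point is 1 summit coloured by its quintile; points are shifted vertically to avoid overlap, and genes were chosen for these counts.

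Limb patterning transcription factors carried high-scoring sites more often than low-scoring ones. Of the 44 genes, 26 (59.1%) had a top-quintile summit and 13 (29.5%) a bottom-quintile summit. Over all coding genes the shares were 5.26% and 6.12%, which are the background for this list and for the lists below. The difference within the list was 29.5 percentage points (8.79 to 47.0). It was 18.2 (−1.27 to 35.9) when only genes within 20 kb were counted. For the top and bottom deciles it was 13.6 (−4.52 to 30.7), and both of these intervals span 0. Each interval treats the 2 counts as independent, although the same 44 genes give both. Of all 149 summits given to them, 42 (28.2%, 21.1 to 36.1) were in the top and 19 (12.8%, 7.86 to 19.2) in the bottom quintile. The same shares over all 7918 summits given to a gene were 19.7% and 20.4%. The median gene of this list was 17.9 kb long, against 17.2 kb for all coding genes. Pknox2, which encodes a homeodomain partner of Pbx proteins, held 3 top-quintile summits (516, 49.9 and 39.6). Tbx18, a T-box gene of the limb and body wall mesenchyme, also held 3 (115, 38.6 and 34.7). Zbtb16, a zinc finger gene of limb patterning, had 296 and 74.4 in the top and 3.10 in the bottom quintile. Gli3, the main repressor of the hedgehog pathway in the limb, had 288 and 41.6 in the top and 2.15 in the bottom quintile. In 15 genes of the list only the top quintile was present, in 11 both, and in 2, Msx1 and Tbx2, only the bottom quintile. The highest scores at Msx1 and Tbx2 were 13.2 and 4.67.

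Among T-box genes as a family, 4 of 17 had top-quintile and 5 bottom-quintile summits. The gene Tbx5 had 5 summits, with 87.5 and 69.8 in the top quintile, both inside the gene, and 1.75 in the bottom quintile, 9.79 kb outside it. Tbx3, a neighbour of Tbx5 that acts at the margins of the bud, had its highest at 223, 57.8 kb outside the gene, and one of 4.13. Tbx15 had 30.9 and 28.2. Tbx4, made in the hindlimb bud, had 1 in the bottom quintile and its highest was 15.4. The 8 genes of hindlimb identity had no top-quintile summit among 3 in all, too few to place. The 15 genes linked to Tbx5 in limb, heart or lung, some of them shared with other lists, had top-quintile summits at 6 and bottom-quintile summits at 4. Fgf10 had 3 summits, none in the top quintile, the highest with a score of 19.5, which lies under the limit of 23.7.

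More of the other Hox genes had a bottom-quintile than a top-quintile summit. Of 25 Hox genes other than the posterior Hoxa and Hoxd genes, 3 had top-quintile and 8 bottom-quintile summits, and none had both. Without the tied summits the counts were 3 and 7. Hoxb3 had 279 and 24.6, Hoxa2 had 115 and 52.0, and Hoxc5 had 127. Hoxc6 had 1 bottom-quintile summit, of 4.13. Of the 9 posterior genes, Hoxa9 had both a top-quintile summit of 220 and a bottom-quintile one of 3.60, and Hoxa10 one of 4.13. These genes adjoin or overlap each other, so the nearest-gene rule splits single neighbourhoods. When each summit was given to every gene within 100 kb, 23 of the 25 had a top-quintile and 21 a bottom-quintile summit. Counted in this way, 13.4% and 17.6% of all coding genes had one.

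Among signalling pathways of the limb, the retinoic acid genes, which make, carry or sense this proximal signal, had top-quintile summits at 6 of 16 and bottom-quintile summits at 2. These were 37.5% and 12.5%, and the interval of the difference, −5.25 to 50.5 percentage points, spans 0. This interval too treats the 2 counts as independent, although the same 16 genes give both. Rarb, a receptor, had 46.8 and 36.7 in the top quintile among 11, the carrier Crabp2 had 47.8, and the synthesis enzyme genes Aldh1a2 and Aldh1a1 had 42.6 and 39.6. In the hedgehog pathway 5 of 14 genes had top-quintile and 4 bottom-quintile summits, and 10 of the 34 summits (29.4%, 15.1 to 47.5) were in the top quintile. The co-receptor gene Boc had 128, 52.0 and 31.9, the co-receptor gene Gas1 55.3 and 34.7, and Hhip, an inhibitor that binds the ligand, 63.0 and 24.6. Those of Boc lay 57.7, 57.1 and 71.3 kb outside the gene, and the one of 52.0 was in the promoter window of Gm30252. Those of Gas1 lay 90.3 and 54.1 kb outside. No summit was given to the ligand gene Shh.

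For bone morphogenetic protein and transforming growth factor signals, 7 of 22 genes had top-quintile and 5 bottom-quintile summits. The ligand gene Bmp5 had 65.2 and 25.5 and the receptor gene Tgfbr2 57.4 and 46.8, while the inhibitory Smad7 and Smad6 had none in the top quintile and highest scores of 10.1 and 4.13. In the fibroblast growth factor pathway both counts were 6 of 19. The receptor gene Fgfr1 had 152, Dusp6, a feedback inhibitor, 150, the ligand gene Fgf18 66.4 and the inhibitor gene Spry1 46.8. The inhibitor gene Spred2 had 1 bottom-quintile summit and a highest score of 21.1. Of 31 Wnt genes, 10 had top-quintile and 7 bottom-quintile summits. The secreted antagonist Sfrp1 had 137, the ligand Wnt11 136 and the nuclear factors Tcf7l1 and Tcf7l2 had 45.7 and 42.6 as their highest. Sfrp2 and Lgr5 had 1 bottom-quintile and no top-quintile summit, and the one inside Lgr5 was also in the promoter window of A930009A15Rik.

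Cartilage genes carried sites of both kinds. Top-quintile summits were at 9 of 23 and bottom-quintile summits at 9, with 7 genes holding both. Creb5, a gene of joint formation, had 4 top-quintile summits between 35.7 and 48.8 among 15. Sox5 and Trps1 had 3 each, with highest scores of 94.8 and 91.1, and 2 in the bottom quintile. Sox6 had 2 in the top quintile, with 156 and 58.5, and 4 in the bottom quintile, between 2.61 and 3.60. Col11a1 and Nkx3-2 had 1 summit each, in the bottom quintile.

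For the lists of other cell types, the share of genes with a top-quintile summit ran from 6.25% to 23.5%, against 5.26% of all coding genes. Of the 25 genes of ectoderm and the apical ridge, 3 had top-quintile and 6 bottom-quintile summits, with 48.8 at Tfap2a and 33.8 near Dlx6 in the top quintile. Of 20 endothelial genes the counts were 2 and 4, with 119 near Sox17, of 16 blood genes 1 and 2, and of 16 neural genes 1 and 2. Muscle genes had 4 and 3 of 17, with 177 at Dach1 and 70.9 near Eya1, and Pax3, the gene of migrating muscle precursors, had 3 in the bottom quintile and none in the top. Heart genes had 2 and 2 of 16, with 68.6 and 52.0 at Gata4. Intervals on these small counts are wide: 2 of the 18 endothelial summits in the top quintile gave 1.38 to 34.7%. The limb bud holds several of these cell types, and the list does not tell in which cells a site was bound.

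**Figure D5:**
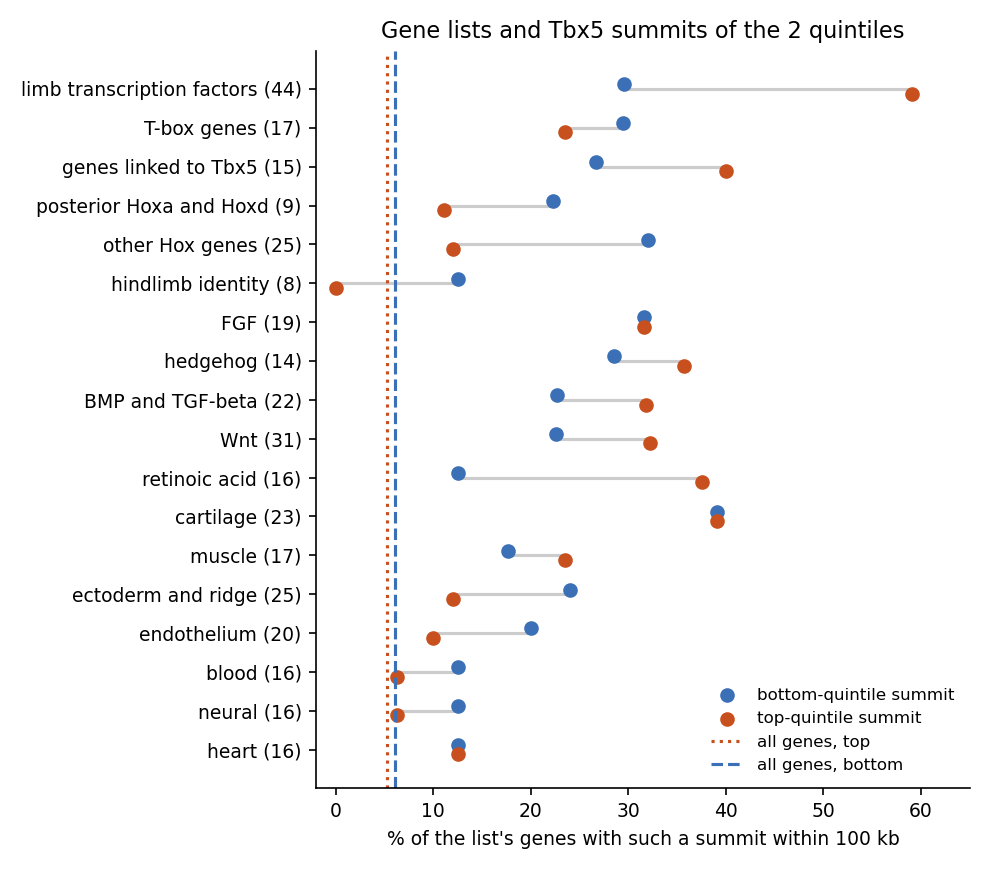
Share of each list's genes (horizontal axis, %) with at least 1 top-quintile (orange) or bottom-quintile (blue) summit as nearest gene within 100 kb, with the number of genes in brackets. The vertical lines give the shares over all protein-coding genes, 5.26% and 6.12%, and the limb transcription factors stand at 59.1% and 29.5%.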

How the data were processed

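The authors deposited 1 list of Tbx5 peak summits, with a score for each that was read as −log10 of the q-value. Per the submitters' processing notes, the build was mm10, and MACS2 2.1.1.20160309, HOMER, Bowtie2 2.2.6 and Bowtie 1.1.2 were among the tools. Peak names contain macs2, and the lowest score, 1.42, lies above 1.3, the −log10 of 0.05. The labels list an input library named for this Tbx5 library, with no file used here; that it served as the caller's control is not stated, nor are read depth, pooling or later filters. Peak numbers on the autosomes were 54.1% to 78.6% present.

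Summits were ordered by score, ties by chromosome and position. Gene positions (21887 protein-coding genes) were those of RefSeq for assembly GRCm38.p6. The promoter table gave the strand of 17492 of them (79.9%), and chromosome 18 was not used for start-site measures. Shares have exact Clopper-Pearson and differences Newcombe 95% intervals (SciPy 1.17.1, pandas 2.3.3, Python 3.11.15). They assume independent summits, which clustering breaks. For gene lists they also treat the 2 counts as independent, although the same genes give both. Differences were taken as top minus bottom. Distances were checked on simulated data.

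Named genes were the 10 with the highest-scoring top-quintile summits, the 10 with the most summits of each quintile, the 10 with the largest excess either way, up to 4 per list by top-quintile and 2 by bottom-quintile count, the 5 chains richest in top-quintile summits and the 5 highest desert summits. Promoter summits and Hoxa9, Shh and Fgf10 were named after their values were seen. Some genes that this rule picks are not reported here. Members and the 18 lists were chosen with earlier results of these data known. Alternatives varied the share taken as tails, tie order, chromosomes, gene set and distances.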

Additional observations from a re-analysis of the deposited data

How the results depend on the processing

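The deficit of high-scoring summits near gene ends, their lower number of genes per 100 summits and their lower share inside genes kept their direction under all of the 10, 10 and 8 alternatives run. The ranges were −6.37 (within 5 kb of a gene end) to −2.73, −9.51 to −7.41 and −3.72 to −1.51 percentage points. The difference in clustering stayed positive under 10 alternatives. It was 12.95 points for the top and bottom deciles, 5.96 for terciles, 5.21 with neighbours within 5 kb, 12.1 within 20 kb, 14.5 within 50 kb and 4.09 with neighbours of the same quintile only. The desert difference ranged from −0.487, with all genes of the table, to 4.14. More genes had a top-quintile than a bottom-quintile summit in 7 of the 18 lists, and in 5 to 10 under 5 alternatives. For single lists, 7 of 90 values changed sign. The lists of fibroblast growth factor, cartilage and heart genes had a main difference of 0, so no change of sign could be counted for them. Their values ran from −15.8 to 15.8, −4.35 to 13.0 and −6.25 to 0 points. With deciles the sign turned for the genes linked to Tbx5 (−6.67 points), Wnt (−3.23) and posterior Hox genes (11.1, also with 1 summit per chain). It turned for muscle within 20 kb (−5.88), and for other Hox (8) and blood genes (6.25) when every gene within 100 kb was counted. The cause was not tested. Leaving out tied summits and drawing quintiles within each chromosome were chosen after seeing the data. Clustering was not run with 1 summit per chain, where no neighbour is left. The promoter difference of −9.22 points for the T-box core was −1.29 for cores wholly within 50 bp of the summit. No pairing of samples was possible because there is 1 library, and the pairing of the 2 counts over the same genes was not used. Read depth is unknown, so the effect of depth on the scores was not tested.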

Other observations

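The sex chromosomes held no top-quintile summit. Of 48 summits on X and Y, none was in the top quintile, which allows a share of up to 6.25% (3 counts of the total), and 31 were in the bottom quintile, 28 of them with scores under the tied value. The highest score was 18.6 on X and 7.64 on Y. Of the peak numbers spanned by X and Y, 4.49% and 6.93% are in the deposited list, against at least 54.1% for each autosome. Whether a filter of the authors bears on this was not tested. Without the tied summits, the share of an autosome's summits that was in the top quintile ran from 16.4% on chromosome 19 to 23.0% on chromosome 3, and the share in the bottom quintile from 14.7% on chromosome 9 to 22.8% on chromosome 15.

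Along genes of known strand, the place of the sites was alike. The median place was 50.3% of the way from start to far end for the top quintile and 47.0% for the bottom quintile, and 49.9% (46.2 to 53.6) and 51.8% (48.2 to 55.4) lay nearer the start. The E-box CACGTG was searched on both strands in the promoters that hold a summit. It was in 2 of 56 for the top quintile (3.57%, 0.435 to 12.3) and 11 of 87 for the bottom quintile (12.6%, 6.48 to 21.5). These intervals overlap. The 3 middle quintiles had it in 10.6%, 7.69% and 12.3% from higher to lower scores, and all promoter windows in 7.15%. The motif TGACTCA was in 3 of 56 and 4 of 87, against 5.20% of all windows.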
